A study of Rattus norvegicus with 8 samples.

Results

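The genes described here encode matrix proteases and their inhibitors: the matrix metalloproteinases (Mmp), the secreted ADAMTS proteases (Adamts), the ADAMTS-like proteins (Adamtsl) and the tissue inhibitors of metalloproteinases (Timp). They were chosen by symbol alone, and FPKM (fragments per transcript length and per sequenced fragment, in the usual units) was summed over the loci that carry a symbol. The rule found 41 symbols among the 15892 listed for both tissues, namely 21 Mmp, 13 Adamts, 3 Adamtsl and 4 Timp symbols. They were carried by 45 loci in hippocampus and 44 in hypothalamus.

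RNA sequencing covered 4 hippocampus and 4 hypothalamus libraries of male Sprague Dawley rats, an outbred strain, which were 2 months old at the start. All 8 libraries came from rats fed an omega-3 (DHA) diet with 15% fructose in the drinking water for 6 weeks, so no diet contrast is possible within them. Whether the libraries stem from separate animals is not given in the labels, and the errors below measure the spread between libraries. Each tissue has its own table, normalised apart, so tissue and table cannot be told apart, levels are set side by side and no p-value is given. Values are FPKM divided by a median-of-ratios factor per library (0.892 to 1.12), called scaled FPKM. The number of reads per library is unknown. A gene was called higher or lower in hypothalamus when the means of log2(scaled FPKM + 1) lay 1 or more apart and no library of either tissue fell within the range of the other tissue. The filter kept genes whose 8 libraries averaged 1 FPKM or more. Marker genes matched the tissue labels: the 4 hippocampal neuron markers were lower in hypothalamus and the 5 hypothalamic neuron markers were higher.

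Matrix metalloproteinases are zinc enzymes made as inactive precursors, which cut collagens, proteoglycans, adhesion molecules and growth factor precursors. Some are secreted and the membrane-type enzymes are tethered to the cell surface. ADAMTS enzymes include the aggrecanases, which cut the lecticans of the brain's matrix, and the procollagen N-proteinases, while ADAMTS-like proteins share their ancillary domains but lack the protease domain. TIMPs bind the active site of metalloproteinases and hold them in check. In brain these proteins take part in synaptic remodelling, myelination and the upkeep of vessel walls.

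All 4 Timp genes were higher in hypothalamus, and Timp2 had the highest level of all 41 symbols in both tissues. Of the 41 symbols, 21 passed the filter. Among these, 6 were higher in hypothalamus (Timp1, Timp2, Timp3, Timp4, Mmp11 and Mmp23), where 13.3% of all 10554 genes compared were higher. Another 2 (Mmp17 and Adamts3) were lower, where 13.4% of all genes were lower, and 13 were neither. The median difference of the 21 genes was 0.65, and that of all genes was -0.04. Libraries of the tissues did not overlap for 10 of the 21 genes by any size of difference, where 53.4% of all genes separated. Of these, 8 were higher in hypothalamus and 2 lower, against 25.7% and 27.7% of all genes in those directions. Of the 21 genes, 16 had a mean of at least 1 FPKM in both tissues, and 5 passed the filter through one tissue only (Adamts3, Adamts15, Adamtsl5, Mmp11 and Mmp19), so these counts do not speak for all 41 symbols. In whole tissue, a different number of cells of a type and a different amount of RNA per cell cannot be told apart.

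Markers of other cell types differed between the tissues as well. Of 12 mural and meningeal markers, 11 were listed for both tissues, and Col1a2 was at 0 throughout. They summed to 145 to 465 scaled FPKM in hippocampus and 372 to 827 in hypothalamus. Of the 10 past the filter, 3 were higher and none lower, with a median difference of 0.87. Among all genes compared, 13.3% were higher and 13.4% lower, and the median was -0.04. Acta2 stood at 142 ± 89.1 in hippocampus and 114 ± 45.4 in hypothalamus and overlapped. The 5 ependymal and tanycyte markers summed to 144 ± 35.4 and 402 ± 81.9, with 2 of 4 past the filter higher and 1 lower. Most of the hypothalamus sum came from Vim (44.7 ± 16.3 and 339 ± 68.8). The lower gene was Foxj1, at 54.8 ± 2.75 and 20.4 ± 5.65. Endothelial markers summed to 149.5 ± 13.3 in hippocampus and 110 ± 9.71 in hypothalamus, with 1 of 7 higher and 2 lower. The lower genes were Cldn5 (77.5 ± 18.9 and 33.8 ± 4.01) and Flt1 (15.6 ± 3.65 and 6.93 ± 1.67). The higher gene was Cdh5 (3.72 ± 0.59 and 10.1 ± 3.77). Astrocyte markers summed to 1598 ± 349 and 1392 ± 116, with 2 of 6 higher and 1 lower. The lower gene was Slc1a2, which had a large part in the hippocampus sum (762 ± 252 and 249 ± 25.8). The higher genes were Aqp4 (117 ± 51.4 and 290 ± 31.6) and Aldh1l1 (20.1 ± 5.21 and 49.0 ± 6.71). For microglia the sums were 185 ± 33.6 and 231 ± 26.3, with 1 of 7 higher. For oligodendrocytes they were 4384 ± 915 and 6365 ± 1351, with 1 of 5 higher. The part of these cell types in the higher inhibitor levels was not tested.

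**Figure D1:**
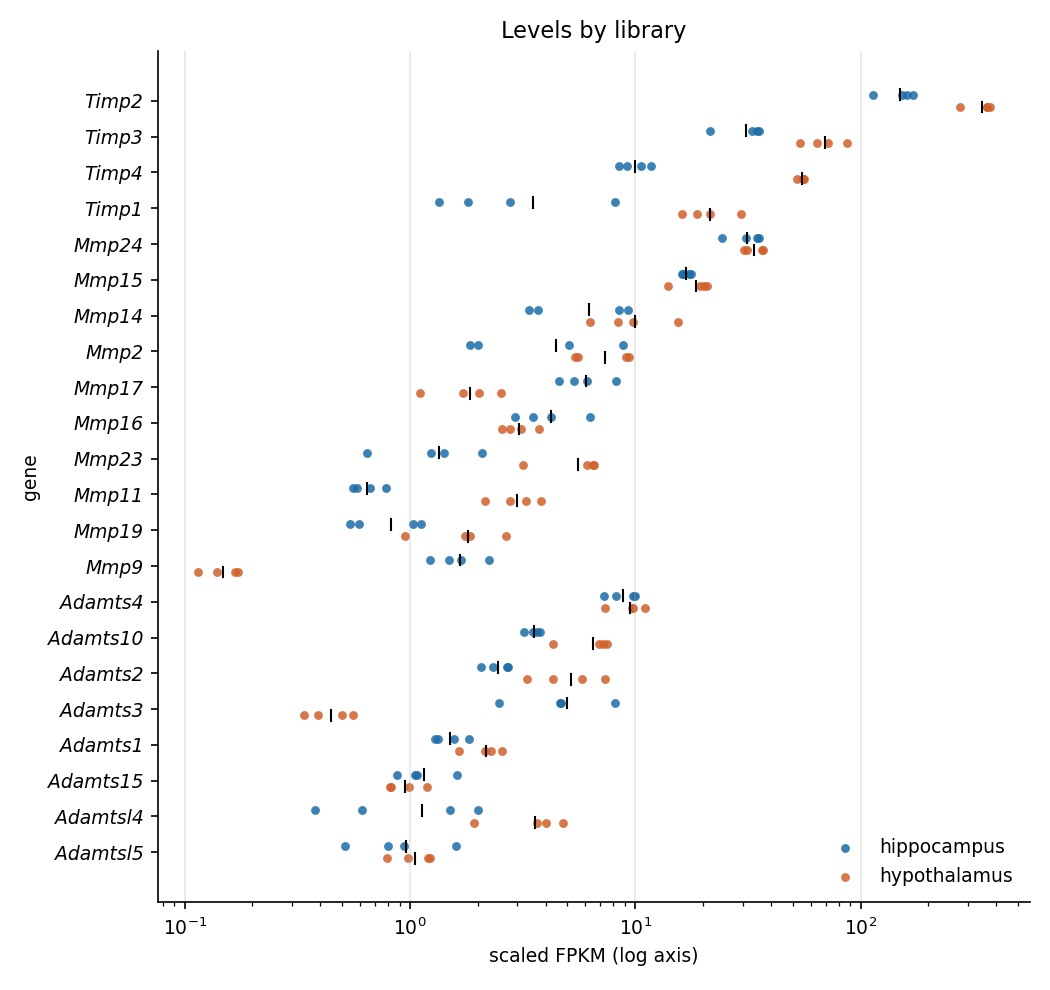
Scaled FPKM on a log axis for the 21 genes past the filter and Mmp9, grouped as Timp, Mmp, Adamts and Adamtsl. Each dot is a library, blue for hippocampus and orange for hypothalamus, and the black tick is the mean of 4. The 4 Timp genes lie apart between the tissues, while Mmp24, Mmp15 and Adamts4 overlap.

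Timp2, the inhibitor that also takes part with Mmp14 in activating the Mmp2 precursor, had the highest level of the family. It stood at 114, 160.3, 153 and 171 scaled FPKM in hippocampus replicates 1 to 4 and at 276, 376, 364 and 363 in hypothalamus. Every hypothalamus library lay above every hippocampus library. The means were 149 ± 25.0 and 345 ± 46.1 (SD, n = 4 libraries each), 2.31 times as high in hypothalamus, with a log2 difference of 1.21 ± 0.17 (SE). By mean level Timp2 ranked 165 among 16183 symbols of the hypothalamus table and 459 among 16223 of hippocampus.

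Timp3, an inhibitor that binds to the matrix and also acts on ADAM17 and the aggrecanases, stood at 21.5, 33.0, 34.7 and 35.3 in hippocampus and at 53.9, 87.2, 71.4 and 64.3 in hypothalamus. Its libraries did not overlap, and replicate 1 was the lowest in each tissue. The means were 31.1 ± 6.52 and 69.2 ± 13.97, and the log2 difference was 1.13 ± 0.22. Without hippocampus replicate 1 the difference was 0.97, which ended the call.

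Timp4, an inhibitor with high levels in brain and heart, stood at 11.7, 9.16, 8.45 and 10.6 in hippocampus and at 52.4, 55.3, 55.2 and 56.1 in hypothalamus. The hypothalamus libraries were close together and all far above those of hippocampus. The means were 9.98 ± 1.47 and 54.8 ± 1.65, 5.49 times as high in hypothalamus, with a log2 difference of 2.35 ± 0.10.

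Timp1, the inhibitor most often induced in injury and inflammation, was the lowest of the 4. It stood at 1.81, 1.348, 2.77 and 8.12 in hippocampus and at 21.5, 29.6, 16.1 and 18.8 in hypothalamus. The groups did not overlap, and hippocampus replicate 4 was well above the other hippocampus libraries. The means were 3.51 ± 3.13 and 21.5 ± 5.83, 6.12 times as high in hypothalamus, with a log2 difference of 2.50 ± 0.47. Without hippocampus replicate 4 the hippocampus mean was 1.97 and the fold 10.9. In hippocampus replicate 4 the summed mural and meningeal markers also reached their highest hippocampus value, 465 scaled FPKM against 145 to 344. Most of this sum was Acta2, at 256. Acta2, Tagln (61.4) and Slc6a13 (4.26) were at their highest hippocampus value there. Rgs5 (29.7) and Pdgfrb (6.32) were at their lowest, and the other markers of the list at neither. The part of mural and meningeal cells in the Timp1 level was not tested.

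Within every library the order of levels was Timp2, Timp3, Timp4, Timp1. Timp3 and Timp4 were close in hypothalamus replicate 1, at 53.9 and 52.4 FPKM, and their ranges over the hypothalamus libraries overlapped. Ratios within a library do not depend on its scaling factor, and the pairs for such ratios were chosen after the values had been seen. The ratio of Timp4 to Timp2 was 0.069 ± 0.023 in hippocampus and 0.161 ± 0.019 in hypothalamus, with no overlap between libraries (highest in hippocampus 0.103, lowest in hypothalamus 0.147). The ratio of Timp3 to Timp2 was 0.207 ± 0.015 and 0.200 ± 0.023, with overlapping libraries. These ratios rest on summing the 2 hippocampus loci of Timp2. With the highest locus alone, Timp3 to Timp2 was 0.408 ± 0.149 in hippocampus and 0.200 ± 0.023 in hypothalamus, still overlapping, and Timp4 to Timp2 was 0.108 to 0.146 and 0.147 to 0.190, nearly touching. Timp2 made up 77.0 ± 1.18% of the summed Timp FPKM in hippocampus and 70.3 ± 2.07% in hypothalamus.

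The promoters of the 4 inhibitors are shown because these genes stood higher together in hypothalamus. Promoters run from 250 bases before to 50 after the gene's start, 5′ to 3′, and come from RefSeq on build GRCr8, whereas the submitters' processing notes name rn5 for the measurements. Of the 41 symbols, 31 had a promoter there by symbol, and Mmp1a is the older symbol of Mmp1. Capitals mark matches to the GC box GGGCGG, the CCAAT box CCAAT, the TATA box TATAAA and the AP-1 motif TGAGTCA, each on both strands; overlapping matches were counted.
Timp1, chrX:3771073-3771372, minus strand: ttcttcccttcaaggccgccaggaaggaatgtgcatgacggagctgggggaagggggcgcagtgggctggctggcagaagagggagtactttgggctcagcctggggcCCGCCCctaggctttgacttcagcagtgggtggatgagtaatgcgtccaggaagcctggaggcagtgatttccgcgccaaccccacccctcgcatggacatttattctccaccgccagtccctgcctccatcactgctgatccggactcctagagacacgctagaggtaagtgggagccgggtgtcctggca
Timp2, chr10:104089165-104089464, minus strand: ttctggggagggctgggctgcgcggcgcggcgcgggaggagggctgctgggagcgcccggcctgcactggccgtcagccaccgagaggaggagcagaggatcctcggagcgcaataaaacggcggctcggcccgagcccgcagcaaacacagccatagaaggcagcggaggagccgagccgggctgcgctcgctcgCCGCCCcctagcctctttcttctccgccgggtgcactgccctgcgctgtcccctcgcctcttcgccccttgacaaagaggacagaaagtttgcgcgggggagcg
Timp3, chr7:19459509-19459808, minus strand: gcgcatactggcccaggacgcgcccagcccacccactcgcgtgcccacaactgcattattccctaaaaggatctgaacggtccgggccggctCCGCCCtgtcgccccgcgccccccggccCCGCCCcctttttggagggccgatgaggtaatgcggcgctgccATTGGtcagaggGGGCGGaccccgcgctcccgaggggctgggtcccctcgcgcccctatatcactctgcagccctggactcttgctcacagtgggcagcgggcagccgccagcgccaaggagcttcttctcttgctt
Timp4, chr4:149985155-149985454, minus strand: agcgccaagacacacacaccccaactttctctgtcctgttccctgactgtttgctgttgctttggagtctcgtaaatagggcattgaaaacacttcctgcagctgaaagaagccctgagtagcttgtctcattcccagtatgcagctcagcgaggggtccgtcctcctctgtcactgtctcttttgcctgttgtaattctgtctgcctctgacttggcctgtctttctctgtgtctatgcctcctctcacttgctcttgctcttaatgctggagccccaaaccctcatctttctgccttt
The promoters of Timp1 and Timp2 each hold 1 GC box match. That of Timp3 holds 3 GC box matches and 1 CCAAT match. None of the 4 motifs matched in the window of Timp4, which also has the lowest GC content of the 4 at 50.3%, against 61.3%, 70.3% and 68.7% for Timp1, Timp2 and Timp3. Among all 33469 promoters of this length, 33.1% hold the GC box, 37.5% the CCAAT box, 14.2% the TATA box and 4.63% the AP-1 motif.

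**Figure D2:**
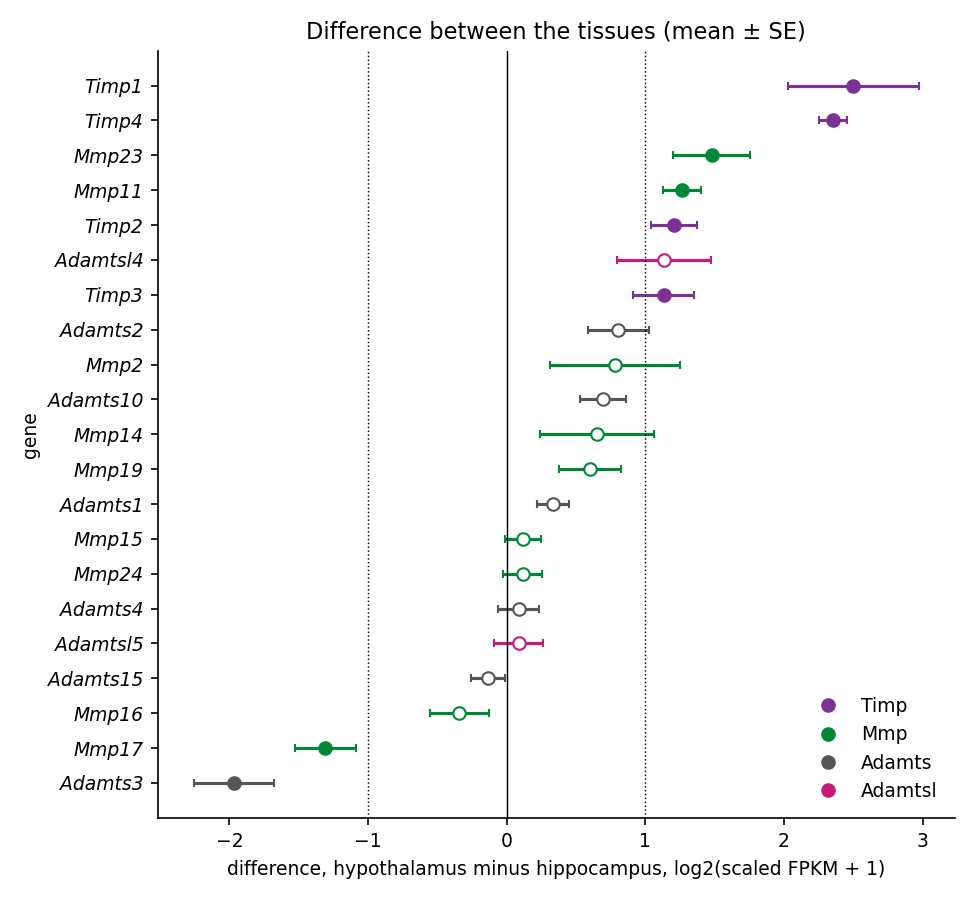
Difference of means, hypothalamus minus hippocampus, on the scale of log2(scaled FPKM + 1) for the 21 genes past the filter, with bars for the SE over 4 libraries per tissue. Filled points were called higher or lower, open points were neither, and dotted lines mark a difference of 1 in either direction. The 4 Timp genes lie between 1.13 and 2.50, and Adamts3 lies lowest at -1.97.

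Among the proteases, membrane-type enzymes carried most of the Mmp level. Mmp14, Mmp15, Mmp16, Mmp17 and Mmp24 together made up 87.9 ± 3.31% of the summed Mmp FPKM in hippocampus and 79.0 ± 2.30% in hypothalamus. Mmp24, a membrane-type enzyme found mainly in neurons, had the highest Mmp level. It stood at 34.7, 24.2, 30.9 and 35.3 in hippocampus and at 31.2, 37.0, 36.4 and 30.3 in hypothalamus. The tissues overlapped, with a log2 difference of 0.12 ± 0.14. Mmp15, another membrane-type enzyme, stood at 16.0, 16.4, 17.4 and 17.7 in hippocampus and at 14.03, 19.4, 20.1 and 20.8 in hypothalamus, and its libraries also overlapped (difference 0.12 ± 0.13).

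Mmp17, which is tethered to the membrane by a lipid anchor, was lower in hypothalamus. It stood at 8.18, 4.59, 5.35 and 6.09 in hippocampus and at 1.11, 2.54, 2.02 and 1.73 in hypothalamus. The libraries did not overlap, and the means of 6.05 ± 1.54 and 1.85 ± 0.60 gave a log2 difference of -1.31 ± 0.22. The ratio of Mmp17 to Mmp24 within a library was 0.173 to 0.236 in hippocampus and 0.035 to 0.069 in hypothalamus, and 0.188 to 0.467 and 0.042 to 0.103 with the highest locus alone. Mmp16, a membrane-type enzyme of neural cells, had means of 4.24 ± 1.46 and 3.05 ± 0.51 with overlapping libraries (difference -0.34 ± 0.21).

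Mmp14, the activator of Mmp2 at the cell surface, stood at 3.36, 3.71, 9.32 and 8.45 in hippocampus and at 6.27, 15.5, 8.42 and 9.81 in hypothalamus. Mmp2, a gelatinase of mesenchymal and vascular cells, stood at 2.00, 1.84, 8.82 and 5.05 in hippocampus and at 5.38, 9.40, 9.14 and 5.55 in hypothalamus. In hippocampus both genes were low in replicates 1 and 2 and high in replicates 3 and 4, and both overlapped between the tissues. The log2 differences were 0.65 ± 0.41 for Mmp14 and 0.78 ± 0.47 for Mmp2, and that of Mmp2 was -0.03 with only its highest locus per table.

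Adamtsl4 showed the same order of hippocampus libraries, and no other of the 21 genes was higher in both of replicates 3 and 4 than in both of replicates 1 and 2 by at least 0.5 on the log2 scale. This order held for 3 of the 21 genes (14.3%) and for 1.86% of all 10554 genes compared. Adamtsl4, which binds fibrillin microfibrils, stood at 0.38, 0.61, 2.01 and 1.51 in hippocampus and at 1.92, 4.76, 3.67 and 4.003 in hypothalamus. Of the 6 choroid plexus markers, 5 were listed for both tissues and Otx2 was at 0 in every library. Their summed level was 41.1 and 41.5 scaled FPKM in hippocampus replicates 1 and 2 and 6778 and 5068 in replicates 3 and 4, against 15.0 to 82.3 in hypothalamus. Ttr, encoding transthyretin, carried most of this sum. Igf2, a meningeal and choroid plexus growth factor gene, stood at 5.91 and 10.2 in replicates 1 and 2 and at 80.9 and 79.6 in replicates 3 and 4, against 74.2 to 355 in hypothalamus. The part of these cell types in the protease levels was not tested. Without hippocampus replicates 3 and 4, an alternative chosen after seeing the data, the differences of Mmp2, Mmp14 and Adamtsl4 were 1.48, 1.21 and 1.58 and their libraries did not overlap. Leaving out the hippocampus libraries with the higher values of these genes raises their differences by construction, so this describes the remaining libraries only. In that setting 9 of 20 genes were higher and 2 lower, where 15.5% and 14.3% of all genes were. With all libraries Adamtsl4 differed by 1.14 ± 0.34 and overlapped.

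Mmp9, the second gelatinase and an enzyme known for its part in hippocampal synaptic plasticity, had a mean under the filter. It stood at 1.495, 2.24, 1.23 and 1.68 in hippocampus and at 0.139, 0.114, 0.167 and 0.173 in hypothalamus. Every hippocampus library lay above every hypothalamus library, with means of 1.66 ± 0.43 and 0.148 ± 0.027 and a difference of -1.198 when no filter was applied. Neutrophils, which store Mmp8 and Mmp9, had summed markers of 0.0646 to 2.11 in hippocampus and 1.26 to 3.402 in hypothalamus, with Elane at 0 in every library. Of these 5 markers only 1, S100a9, passed the filter, so the sum says little about these cells. Their part in the Mmp9 level was not tested.

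Mmp11, which is activated inside the cell by furin, was higher in hypothalamus, at 0.667, 0.579, 0.561 and 0.780 in hippocampus and 2.15, 3.82, 3.26 and 2.77 in hypothalamus. The libraries did not overlap, and the log2 difference was 1.26 ± 0.14. Mmp23, an unusual enzyme held in the membrane by its propeptide, stood at 2.09, 0.646, 1.42 and 1.24 in hippocampus and at 3.17, 6.08, 6.47 and 6.54 in hypothalamus. It was 4.13 times as high in hypothalamus, with a log2 difference of 1.48 ± 0.28 and no overlap. Mmp19, a secreted enzyme of basement membranes, had means of 0.822 ± 0.299 and 1.80 ± 0.70 and overlapped (0.60 ± 0.22).

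Most of the remaining Mmp symbols had little or no signal. Mmp1a, Mmp3, Mmp7, Mmp8, Mmp10, Mmp12, Mmp13, Mmp20 and Mmp27 encode collagenases, stromelysins and other secreted enzymes and lie close together on chromosome 8 in the RefSeq annotation. Of these 9, Mmp1a, Mmp7, Mmp20 and Mmp27 were listed at 0 in all 8 libraries. The highest value of any of the 9 in any library was 0.322 FPKM, for Mmp3 in hypothalamus replicate 3. Mmp21 and Mmp28, outside this cluster, were also listed at 0 throughout, as were 15.1% of all symbols. A listed 0 can be a failed estimate, and Col1a2 was at 0 in all libraries while Col1a1 reached 36.8 ± 16.4 FPKM in hypothalamus.

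The promoters of 2 cluster genes and of Mmp24 are shown to set the near-silent cluster beside the highest Mmp gene, with capitals as above.
Mmp13, chr8:12782579-12782878, plus strand: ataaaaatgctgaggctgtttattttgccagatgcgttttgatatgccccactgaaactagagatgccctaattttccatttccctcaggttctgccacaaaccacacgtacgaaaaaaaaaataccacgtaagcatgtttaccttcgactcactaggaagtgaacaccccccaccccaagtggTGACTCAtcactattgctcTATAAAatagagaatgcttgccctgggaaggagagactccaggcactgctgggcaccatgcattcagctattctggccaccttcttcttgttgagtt
Mmp3, chr8:12925031-12925330, plus strand: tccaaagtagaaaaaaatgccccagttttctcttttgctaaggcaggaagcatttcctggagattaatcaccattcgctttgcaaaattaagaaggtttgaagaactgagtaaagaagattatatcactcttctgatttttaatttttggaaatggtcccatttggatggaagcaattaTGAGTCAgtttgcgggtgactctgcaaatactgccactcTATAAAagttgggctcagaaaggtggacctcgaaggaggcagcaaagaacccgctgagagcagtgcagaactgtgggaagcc
Mmp24, chr3:164738976-164739275, plus strand: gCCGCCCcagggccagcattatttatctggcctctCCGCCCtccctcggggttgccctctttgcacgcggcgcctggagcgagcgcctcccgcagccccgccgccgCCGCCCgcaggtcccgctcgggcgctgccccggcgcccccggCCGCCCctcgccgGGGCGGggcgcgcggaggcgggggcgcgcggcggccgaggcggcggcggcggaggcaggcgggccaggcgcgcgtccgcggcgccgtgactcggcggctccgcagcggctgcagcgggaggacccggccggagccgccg
Among the 9 cluster promoters, 6 hold both the AP-1 motif and the TATA box (Mmp1, Mmp3, Mmp7, Mmp10, Mmp12 and Mmp13), and none holds a GC box. In all promoters of this length 0.762% hold both. Of the 8 promoters of Timp and Mmp genes past the filter, 7 hold a GC box, and none holds the AP-1 motif or the TATA box. With Adamts and Adamtsl genes, 15 genes past the filter had a promoter. Among them, Adamts1 and Adamts10 hold 1 TATA box match each. Adamts4 and Adamtsl5, like Timp4, hold none of the 4 motifs, and Adamtsl5 has 70% GC. Mmp28, listed at 0 throughout, holds 4 GC box matches at 65% GC, and Adamts14, under the filter, holds 7 at 76%. A relation of motifs to levels was not tested. That of Mmp24 holds 5 GC box matches and has a GC content of 83.7%, where cluster promoters ranged from 38.3 to 49.7%. Mmp2, Mmp9, Mmp14, Mmp16, Mmp17, Mmp19, Adamts5, Adamts15 and Adamts19 had no matched promoter.

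Adamts genes had lower levels, and Adamts4 led in both tissues. Adamts4, an aggrecanase that cuts brevican, stood at 8.22, 10.001, 9.81 and 7.28 in hippocampus and at 7.33, 9.79, 9.72 and 11.015 in hypothalamus. The tissues overlapped almost wholly (difference 0.09 ± 0.15), and Adamts4 made up 35.5 ± 2.58% and 33.4 ± 3.09% of the summed Adamts FPKM. The aggrecanase genes Adamts1, Adamts4, Adamts5, Adamts9 and Adamts15 summed to 12.6 ± 1.13 and 14.2 ± 1.51 FPKM. Adamts1 (1.505 ± 0.24 and 2.17 ± 0.38) and Adamts15 (1.15 ± 0.32 and 0.955 ± 0.179) overlapped between the tissues.

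Of the procollagen N-proteinase genes, Adamts3 was lower in hypothalamus, Adamts2 was not called and Adamts14 was under the filter. Adamts3, which in mouse brain also cuts and inactivates reelin, stood at 4.62, 8.12, 4.70 and 2.48 in hippocampus and at 0.340, 0.560, 0.4997 and 0.392 in hypothalamus. Every hippocampus library was above every hypothalamus library, with means of 4.98 ± 2.33 and 0.448 ± 0.10, 11.1 times as high in hippocampus, and a log2 difference of -1.97 ± 0.29. Adamts2, the main procollagen enzyme of skin, stood at 2.73, 2.71, 2.08 and 2.33 in hippocampus and at 3.31, 7.38, 5.83 and 4.33 in hypothalamus. Its libraries did not overlap, but its difference of 0.80 ± 0.22 was short of the limit, and it was 1.002 and called without replicate 1 of both tissues. The ratio of Adamts3 to Adamts2 within a library was 1.07 to 3.001 in hippocampus and 0.076 to 0.103 in hypothalamus. Adamts14 had means of 0.111 ± 0.022 and 0.272 ± 0.142 and overlapped.

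Adamts10, which acts on fibrillin microfibrils, stood at 3.79, 3.52, 3.66 and 3.21 in hippocampus and at 4.31, 7.49, 6.91 and 7.20 in hypothalamus. The libraries separated with a difference of 0.69 ± 0.16, short of the limit. Among the Mmp, Adamts, Adamtsl and Timp genes under the filter, 4 separated. Of these, 3 (Adamts5, Adamts7 and Adamts12) were higher in hypothalamus, and Mmp9 was lower. The hypothalamus means of the 3 were 0.719 ± 0.065, 0.461 ± 0.172 and 0.990 ± 0.223, against 0.340 ± 0.091, 0.146 ± 0.030 and 0.346 ± 0.170. Their differences with no filter applied were 0.36, 0.34 and 0.57, short of the limit and at low levels. The share of all genes under the filter that separate was not worked out, so these separations have no background. Adamts9, Adamts14, Adamts18 and Adamts19 had means under 1 FPKM in both tissues and overlapped. Of the Adamtsl genes, Adamtsl5 stood at 1.59, 0.514, 0.800 and 0.944 in hippocampus and at 0.790, 1.199, 0.981 and 1.23 in hypothalamus. Adamtsl3 stood at 0.423, 0.776, 0.443 and 0.539 in hippocampus and at 1.504, 1.30, 0.908 and 0.483 in hypothalamus. Both overlapped between the tissues.

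Summed over a family, libraries of the tissues separated for the Timp and Adamtsl genes and overlapped for the Mmp and Adamts genes. The Timp sum was 149, 204, 199 and 225 scaled FPKM in hippocampus and 404, 548, 507 and 502 in hypothalamus. The Mmp sum was 73.3, 61.2, 79.6 and 80.4 in hippocampus and 67.5, 100.4, 91.3 and 82.1 in hypothalamus, with overlap, and the Adamts sums of 25.0 ± 3.92 and 28.5 ± 4.84 overlapped too. The Adamtsl sum was 1.90 to 3.25 in hippocampus and 4.21 to 7.26 in hypothalamus. The ratio of the Timp sum to the Mmp sum within a library was 2.03, 3.33, 2.50 and 2.80 in hippocampus and 5.98, 5.46, 5.55 and 6.11 in hypothalamus. Its means were 2.66 ± 0.55 and 5.78 ± 0.32, and every hypothalamus library was above every hippocampus library. With only the highest locus of each symbol the means were 2.06 and 6.74. RNA levels do not give the amount of active enzyme or inhibitor.

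**Figure D3:**
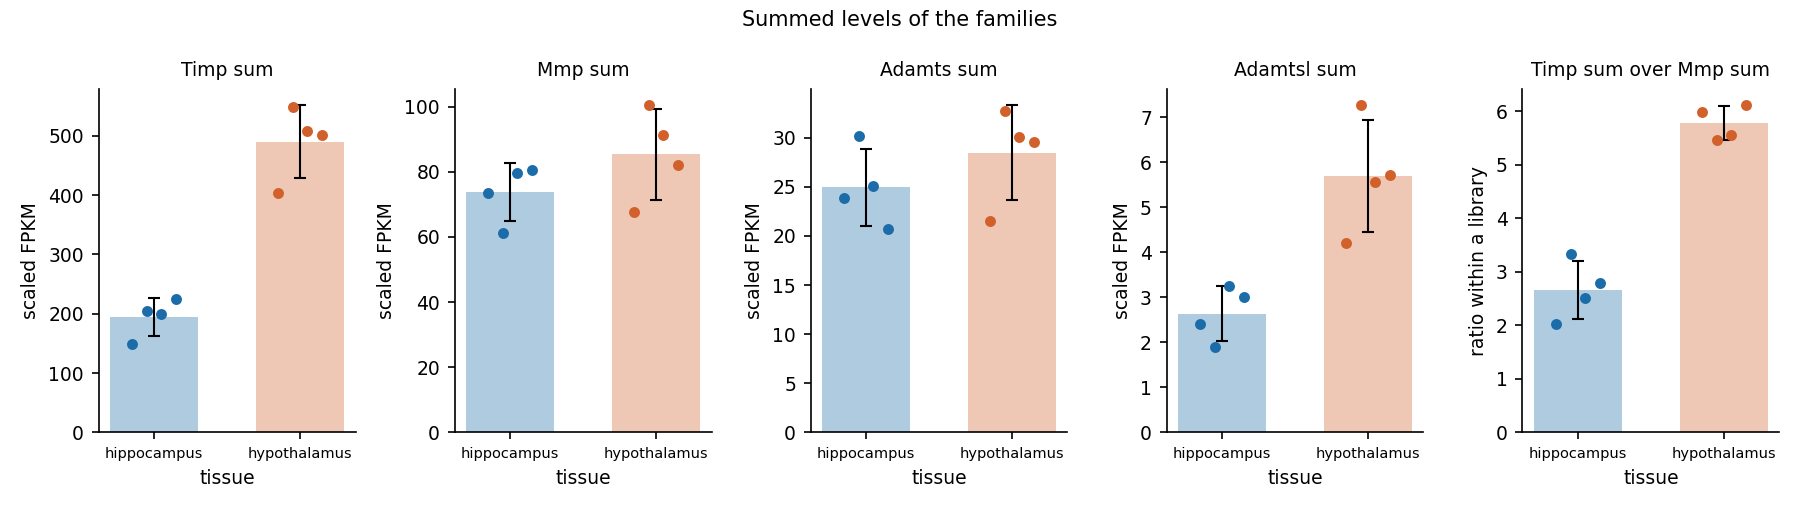
Summed scaled FPKM of the Timp, Mmp, Adamts and Adamtsl genes and the ratio of the Timp sum to the Mmp sum. Bars are means of 4 libraries with SD, and dots are libraries. The ratio lies between 2.03 and 3.33 in hippocampus and between 5.46 and 6.11 in hypothalamus, while the Mmp and Adamts sums overlap.

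The libraries of hypothalamus differed from each other across most of these genes. Replicate 1 was the lowest of the 4 for 17 of the 21 genes and the highest for none, where it was the lowest for 41.4% and the highest for 39.1% of all genes compared. Replicate 2 was the highest for 15 of the 21, against 21.7% of all genes. Mural and meningeal markers summed to 372 in replicate 1 and to 729.7 to 827 in the others. The summed matrix substrates were 162 in replicate 1 and 236 to 307 in the others. Their part in the lower protease and inhibitor levels was not tested. Without hypothalamus replicate 1, 7 of 22 genes were higher and 3 lower, where 14.7% and 14.4% of all genes were.

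**Figure D4:**
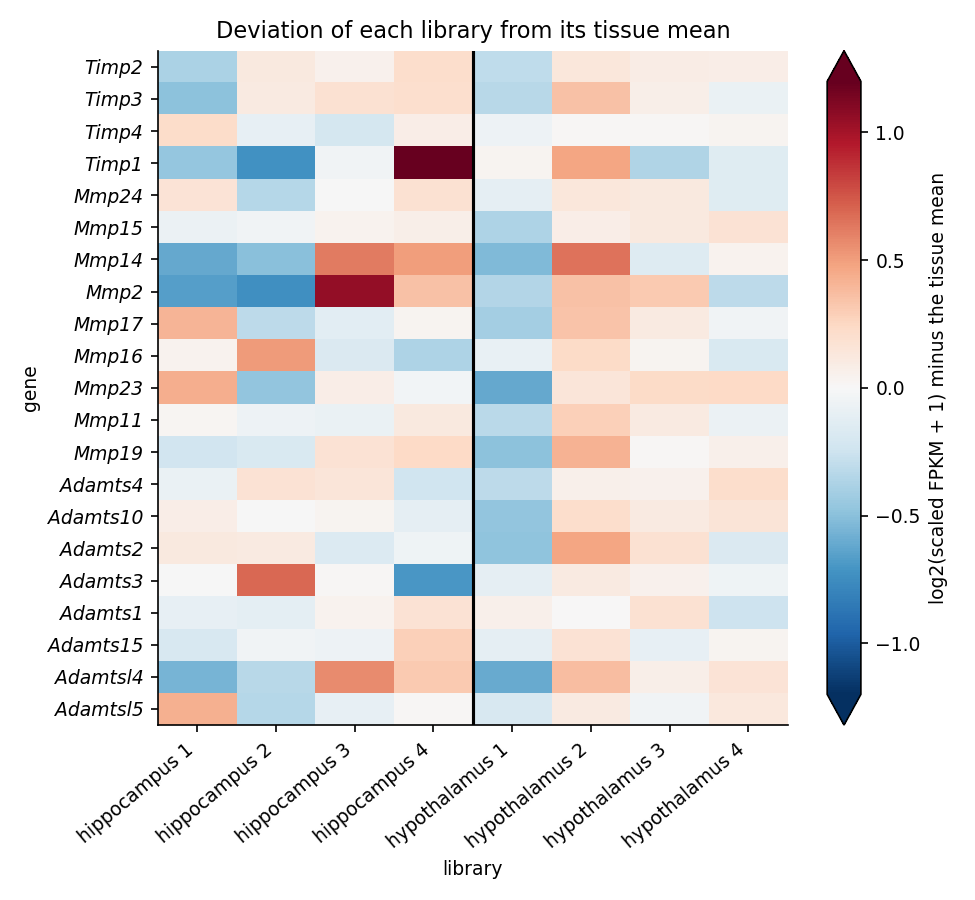
Colour gives log2(scaled FPKM + 1) minus the mean of the tissue for each of the 21 genes (rows) in each library (columns), red above and blue below. Hypothalamus replicate 1 is the lowest of its tissue for 17 of 21 genes, and Mmp2, Mmp14 and Adamtsl4 are higher in hippocampus replicates 3 and 4.

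Some symbols were listed at several loci, and their levels are sums over them. Timp2 had 2 loci in hippocampus and 1 in hypothalamus. The second hippocampus locus held 4.26% of the sum in replicate 1 and 61.0, 54.2 and 49.7% in replicates 2, 3 and 4. Mmp15, with 2 loci in hippocampus, had 0.0583% of its sum in the second locus in replicate 1 and 34.0 to 43.7% in the others. Mmp24 had 2 loci in both tissues, and its second hippocampus locus held 49.5% in replicate 1 and 7.68 to 10.9% in the others. Mmp2 had 2 loci in hypothalamus, the second holding 17.5% in replicate 1 and 54.4 to 57.9% in the others. With only the highest locus of each symbol and table, Timp2 differed by 2.07, Mmp15 by 0.61 and Mmp2 by -0.03, so the sizes for these genes depend on the sum.

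**Figure D5:**
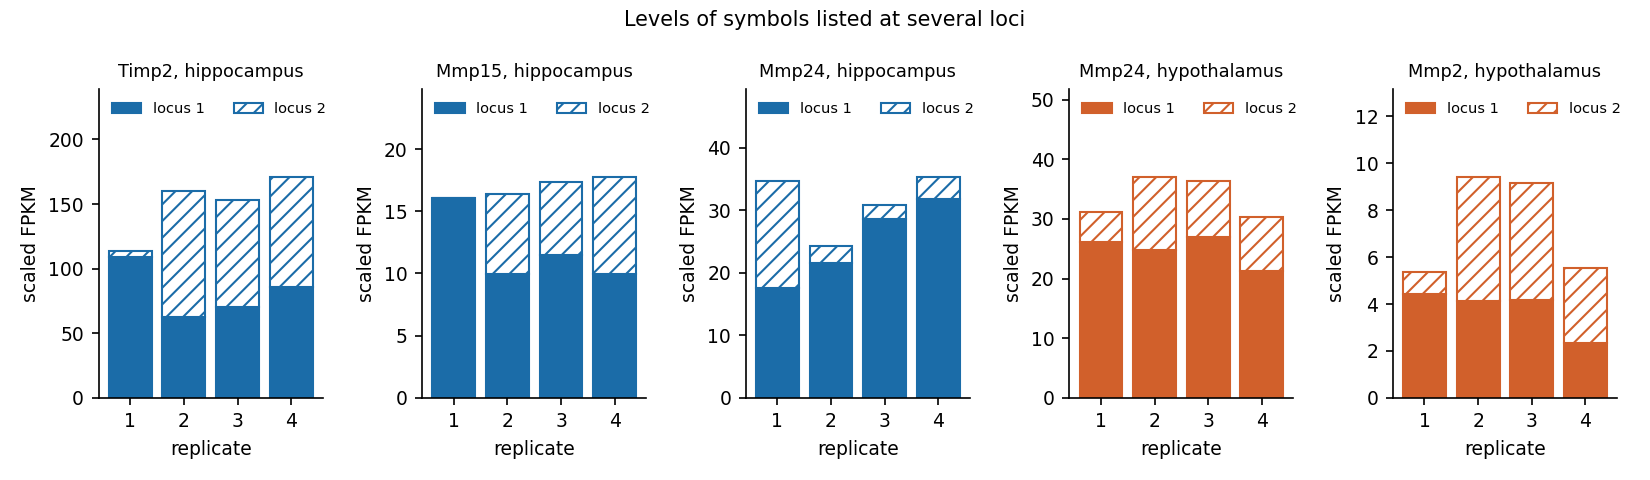
Scaled FPKM of the loci that share the symbol Timp2, Mmp15 or Mmp24 in hippocampus (blue) and Mmp24 or Mmp2 in hypothalamus (orange), by replicate. Filled and hatched parts are the loci with the higher and the lower mean, and replicate 1 divides them in other proportions than replicates 2 to 4, with 4.26% of Timp2 in the second locus against 49.7 to 61.0%.

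The other genes of the pathway were described by lists. In the plasminogen system, which activates several metalloproteinase precursors, all 10 genes were listed for both tissues and 5 passed the filter, with 1 higher in hypothalamus and none lower (all genes 13.3% and 13.4%), 4 neither and a median difference of 0.82 (all genes -0.04). The higher gene was S100a10, a plasminogen receptor subunit, at 53.2 ± 8.11 FPKM against 13.3 ± 2.75 in hippocampus. Serpine2, encoding protease nexin, was at 162 ± 8.86 against 91.7 ± 7.78 and separated with a difference of 0.82. Serpini1, encoding neuroserpin, the brain's inhibitor of tissue plasminogen activator, was at 46.6 ± 19.9 against 88.2 ± 23.6 and overlapped. The overlap rested on hypothalamus replicate 1, at 76.3 against 35.4 to 37.6 in the others, where the lowest hippocampus library was at 69.7.

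Among activators, inhibitors and clearance receptors of metalloproteinases, 11 of 14 were listed for both tissues, 10 passed the filter and all 10 were neither higher nor lower, with a median of 0.46. For all genes compared, 13.3% were higher, 13.4% lower and the median was -0.04. Bsg, encoding the metalloproteinase inducer basigin, had the highest level at 995 ± 258 against 642 ± 127 and overlapped. Spock1, encoding the proteoglycan testican, was at 102 ± 13.8 against 166 ± 49.7, and its libraries separated with a difference of -0.66, short of the limit. Lrp1, encoding a clearance receptor, was at 168 ± 29.7 against 83.0 ± 7.52. Its libraries separated too, and its difference of 0.998 was barely short of the limit. Among ADAM membrane proteases, 7 of 11 were listed for both tissues and passed the filter, with 2 lower in hypothalamus (13.4% of all genes), 5 neither and a median of -0.62. Adam11, a family member without protease activity, was at 29.8 ± 10.5 against 108 ± 24.9, and Adam19 was at 1.89 ± 0.28 against 7.22 ± 2.70. Adam23, which is not catalytic either, was at 41.7 ± 2.05 against 46.3 ± 10.7.

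Of 15 matrix substrates, 13 were listed for both tissues and 11 passed the filter. In hypothalamus 3 of them (Col3a1, Fn1 and Tnc) were higher and 2 (Tnr and Reln) lower, the other 6 were not called, and the median was 0.78. Among all genes 13.3% were higher and 13.4% lower. Col3a1, a fibrillar collagen, was at 19.0 ± 3.68 against 2.47 ± 1.347, and Tnr, encoding tenascin-R of perineuronal nets, was at 3.70 ± 1.24 against 17.6 ± 8.55. Reln, encoding reelin, was at 8.60 ± 0.53 against 25.2 ± 4.95, lower in hypothalamus, and is named, after its values had been seen, as a substrate of Adamts3. Bcan, encoding brevican, had the highest level of the list at 101 ± 21.1 against 83.8 ± 11.9 and overlapped, as Adamts4 did.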

How the data were processed

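RNA enriched by poly-A selection was sequenced on an Illumina instrument (labels' protocols). FPKM values were deposited by the authors per locus and library in one table per tissue, with a status column; per the submitters' processing notes the build was rn5 and the tools included Cufflinks, Cuffdiff, Bowtie, Bowtie2, TopHat and TopHat2, with roles and versions not given in the sources used here. All loci of the 41 symbols carried the status OK. Of the genes in the other lists, Lrp1 and Slc17a7 did not carry it throughout. FPKM were summed per symbol, divided by median-of-ratios factors over the 15892 shared symbols and taken as log2(scaled FPKM + 1), which understates differences of low genes. SE is that of a difference of means over 4 libraries per tissue. Calls required a difference of 1 without overlap, with a mean of at least 1 FPKM; limma 3.58.1 with a trend (calls at an adjusted p of 0.05 and a difference of 1) was an alternative only, with no p printed, since tissue and table coincide. The calculation was tested on simulated data. Genes called and the 3 highest of each family per tissue are given in every library. Genes, lists and tests were chosen with earlier results of these data known. Python 3.11.15, pandas 2.3.3, numpy 2.4.6 and R 4.3.3 were used. Depth is unknown, so no counting interval is given.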

Additional observations from a re-analysis of the deposited data

Results flagged for a closer look

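Groups of 4 libraries were formed for each of the 21 genes in each tissue, on the log2 scale. The ratio of the Timp sum to the Mmp sum in each tissue, without a log, was added. In 4 of the 44 groups, a library lay far from the other 3 by Dixon's criterion, where chance gives about 1 in 20. In all 4 it was replicate 1 and the lowest. Timp3 in hippocampus replicate 1 was at 21.5 scaled FPKM, against 33.0 to 35.3 in the others. In hypothalamus replicate 1, Timp2 was at 276 against 363 to 376, Adamts10 at 4.31 against 6.91 to 7.49 and Mmp23 at 3.17 against 6.08 to 6.54.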

How the results depend on the processing

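Of the 8 genes called, 7 kept their call in every alternative that could compare them, and Timp3 lost it without hippocampus replicate 1 (0.97). Of 13 genes not called, 9 were called in no alternative. Adamtsl4 was called in limma (1.14), on unscaled FPKM (1.28), after upper-quartile scaling (1.21), without hippocampus replicate 3 (1.33), without hypothalamus replicate 1 (1.34), without hippocampus replicates 3 and 4 (1.58) and without replicate 1 of both tissues (1.16). Mmp2 was called without hippocampus replicate 3 (1.13). The number of higher genes ranged from 4 with a filter at 5 FPKM to 9 without hippocampus replicates 3 and 4, an alternative added after seeing the data, as was the highest locus alone. The number of lower genes was 0 with the filter at 5 FPKM, which leaves 10 genes and neither of the 2 lower ones. The median difference was 0.19 with no filter, which adds 14 low genes. The ratio of Timp to Mmp sums was 2.12 in hippocampus with 1 locus per table, where Timp2, Mmp2, Mmp15 and Mmp24 drop out, and with the highest locus alone 2.06 in hippocampus and 6.74 in hypothalamus. Values as deposited placed the median of all genes at 0.18 in place of -0.04, with 7 genes higher and 2 lower; 65.3% of calls over all genes were then higher, against 49.8%. In limma, 7 genes were higher and 2 lower, with the replicate number as a block and without it. Deviations of same-numbered libraries correlated across genes at -0.08 to 0.14. Libraries with different numbers spanned -0.20 to 0.20, so the main comparison did not treat same-numbered libraries as pairs. Replicate 1 of both tissues nonetheless divided loci unlike the other replicates.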

Other observations

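The shift of replicate 1 between loci was not particular to the genes described. Among symbols with 2 loci and a mean of at least 5 FPKM, the share of a locus in replicate 1 lay over 20 percentage points away from all other replicates, which themselves lay within 20 points of each other, for 283 of 1061 symbols in hippocampus (26.7%) and 204 of 813 in hypothalamus (25.1%). The same held for 0.283 to 2.36% of symbols in the other hippocampus replicates and 0.123 to 1.11% in the other hypothalamus replicates.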
